A study of Danio rerio with 24 samples.

Results

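Mutant alleles of *ikzf1* (ENSDARG00000013539), the zebrafish gene for Ikaros, were compared in blood-forming tissue of adult fish. The fr105 line carries a CRISPR/Cas9 deletion after which the protein keeps only 1 zinc finger, so that most of its DNA-binding fingers and the C-terminal fingers are missing. The IT325 line carries an ENU-induced nonsense mutation that removes the C-terminal fingers and leaves the DNA-binding ones. Whole kidney marrow (WKM) came from fish aged 3 months of the Tüpfel long fin/Ekkwill strain, homozygous for either allele or wild-type, and no treatment was given. Light scatter guided the sorting of single cells into plates, and mCEL-Seq2 was used for sequencing. This method counts each captured transcript near its 3′ end by a unique molecular identifier (UMI). The labels named 8 libraries for each genotype, 4 in a set called P1 and 4 in a set called P2. The 16 mutant libraries, of 24 in all, were taken by their titles. A barcode counted as a cell from 1500 transcripts upwards, which gave 304 fr105 and 359 IT325 cells of 1008 in all, and the 345 wild-type cells served as a reference.

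Ikaros binds DNA through a group of N-terminal zinc fingers and pairs with itself and its relatives through the C-terminal ones. In mammals it acts largely together with chromatin complexes such as NuRD and is best known for its role in lymphocyte development, and it is also expressed in erythroid and myeloid cells. In zebrafish the kidney marrow takes the place of mammalian bone marrow and holds neutrophils, nucleated red cells and their precursors, macrophages, lymphocytes and thrombocytes, beside kidney tubule cells that are carried along in the dissection.

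A library held 23 to 45 cells and 103585 to 368354 transcripts in fr105, and 37 to 52 cells and 302550 to 545086 transcripts in IT325. Median transcripts per cell ranged from 3264 to 6120 in fr105, 5364 to 8753 in IT325 and 3160 to 4502 in wild-type libraries, with the deepest cells on average in IT325. The libraries of 1 genotype shared a sequencing lane per the study's methods, so lane and genotype cannot be told apart. The labels name no fish, each line stands for 1 allele, and p-values measure the spread between libraries, which may in part be technical. Levels below are transcripts per 1000000 transcripts of a library, log2 fold changes are fr105 minus IT325 with their SE, and a gene was called at an adjusted p below 0.05 in edgeR's quasi-likelihood test.

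Counting at the 3′ end does not read the altered sequence, so the level of *ikzf1* does not test the labels. It was 102 to 183 in fr105 (median 130) and 104 to 206 in IT325 (median 173), and the groups overlapped. Wild-type libraries were lower, at 25.3 to 85.0 (median 57.1). The mutants differed by -0.52 ± 0.18 (adjusted p = 0.032), a difference that was lost in 7 of the 16 fits that left out 1 library.

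In sums over all cells, 947 of 3296 genes tested (28.7%) differed between the mutants, 504 of them higher (15.3%) and 443 lower (13.4%) in fr105. Every fr105 library lay above every IT325 library for 149 genes (4.52%) and below for 47 (1.43%). The median log2 fold change over all genes was -0.03. These shares are the background for the counts of each function that follow. Without normalization factors, an alternative chosen after seeing the data, the median moved by 0.17 and the split was 707 higher against 281 lower.

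Cell types differed as well. Erythroid-like cells made up 2.24% ± 2.65 of an fr105 library and 16.5% ± 3.80 of an IT325 library (SD, n = 8), with the highest fr105 library at 6.67% and the lowest IT325 library at 12.2% (two-sided exact permutation test, adjusted p = 0.00031). Neutrophil-like cells made up 56.8% ± 5.61 in fr105 and 36.5% ± 6.40 in IT325 (same test, adjusted p = 0.00031), and 1 IT325 library at 47.6% reached into the fr105 range of 47.2 to 63.6%. The shares depended on how cells were named. When each cell was named from its own markers without clusters, erythroid-like cells made up 4.82% in fr105 and 41.2% in IT325, and neutrophil-like cells 84.3% and 55.0%, both still apart (two-sided exact permutation test, adjusted p = 0.00016, the smallest that it can give). That naming took the list with the largest share of its markers detected, however low their level. Globins made up a mean of 0.147% of transcripts in the neutrophil-like cells of fr105 and 0.987% in those of IT325. The part of such transcripts in the shares without clusters was not tested. Clusters left unnamed held 15.1% ± 6.60 of an fr105 library and 28.7% ± 7.0 of an IT325 library. The fr105 sets differed between themselves. The 154 fr105 cells of P1 held 7 erythroid-like cells and the 150 cells of P2 held 0, which allows a share of up to 2.0%. That limit treats cells as independent and leaves out the spread between libraries, so it is too narrow for the genotype. In IT325 the sets held 27 of 172 and 32 of 187. In sums over a library, fewer cells of a type and less RNA per cell cannot be told apart.

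**Figure D1:**
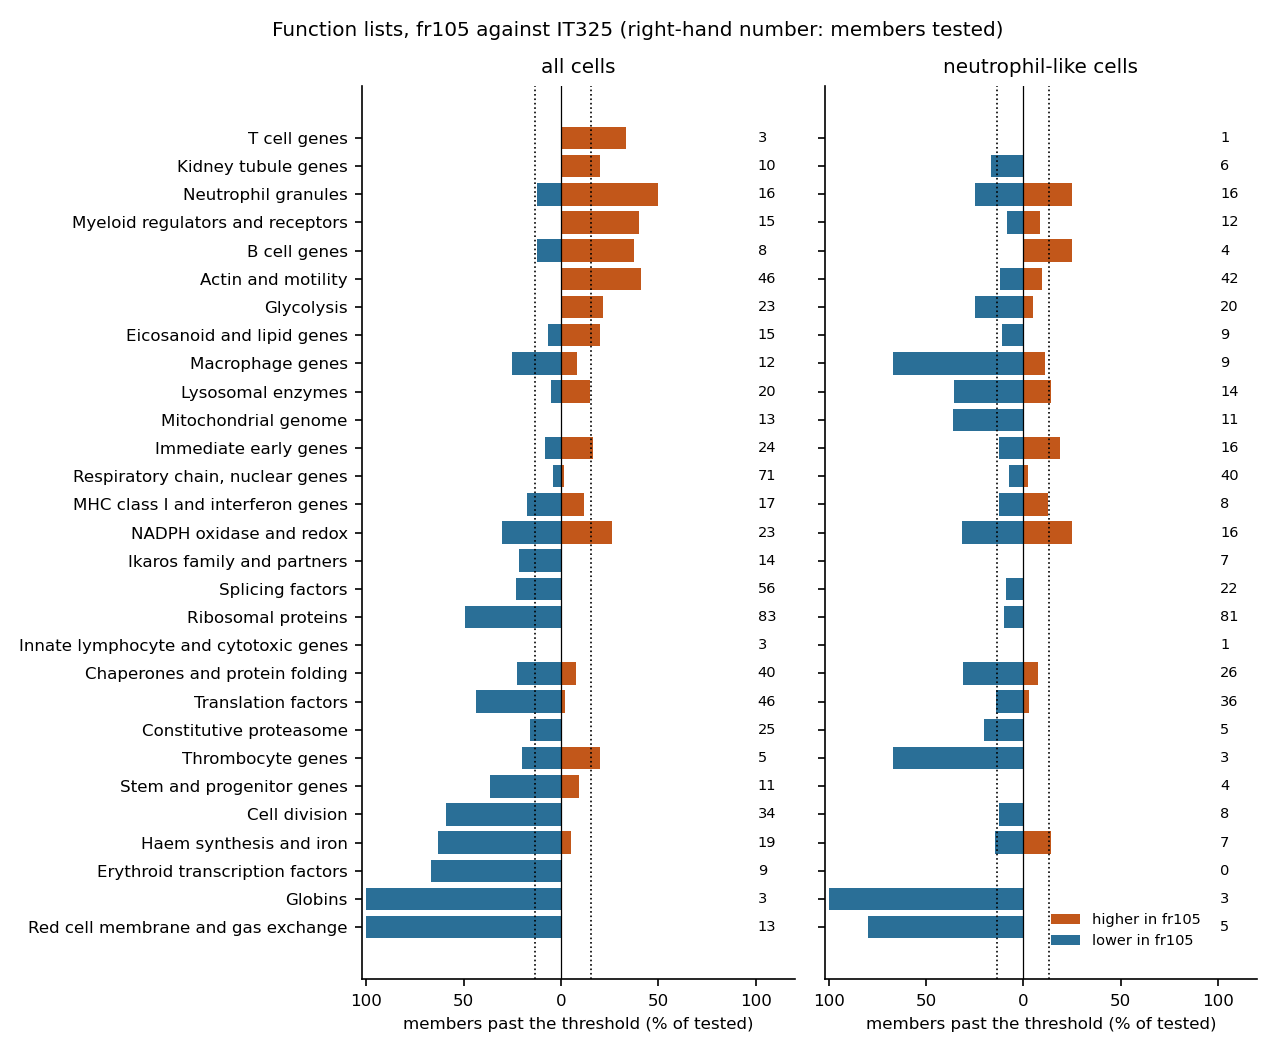
Members of 29 function lists past the threshold, as a percentage of the members tested (horizontal axis), higher in fr105 to the right and lower to the left, in sums over all cells and over neutrophil-like cells; dotted lines mark the share over all genes tested (15.3% higher and 13.4% lower in all cells, 13.2% and 13.4% in neutrophil-like cells). Globins, red cell membrane and cell division genes extend to the left in all cells, while neutrophil granule and actin genes extend to the right there and lie near the dotted lines or on both sides in neutrophil-like cells.

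Red cell genes showed the widest difference. All 3 globins of the list that were tested, all 13 genes of the red cell membrane and gas exchange, 12 of 19 genes of haem synthesis and iron, and 6 of 9 erythroid transcription factors were lower in fr105, against 13.4% of all genes. Their median log2 fold changes were -2.30, -2.72, -1.74 and -1.98. The lists name 6, 21, 35 and 13 genes found in the files, and the others did not pass the filter on low counts. A gene could pass that filter through the genotype where it was high, while a member low in every genotype could not enter. These counts are therefore not independent of the filter, and the share over all genes rests on the same filter.

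Among the regulators, *klf1*, which drives globin and haem genes in erythroid precursors, was at 0 to 116 in fr105 (median 8.59) and 98.0 to 322 in IT325 (median 228). Only the top of the fr105 range reached that of IT325, and the difference was -2.94 ± 0.57 (adjusted p = 0.00037). *lmo2*, a bridging protein of the erythroid and progenitor transcription complex, was at 0 to 31.3 (median 7.99) in fr105 and 32.1 to 119 (median 39.5) in IT325, with no overlap (-2.17 ± 0.50, adjusted p = 0.0019). *gata1a*, the leading erythroid GATA factor, *tal1*, its partner, and *epor*, the erythropoietin receptor, were lower by -2.69, -1.98 and -2.25, with overlapping ranges.

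Haem synthesis followed the same order. *alas2*, the first enzyme of haem synthesis in red cells, was at 4.56 to 244 (median 56.4) in fr105 and 389 to 990 (median 679) in IT325 (-2.96 ± 0.56, adjusted p = 0.00032). *uros*, a later enzyme of the same pathway, was at 0 to 34.8 (median 3.04) against 47.4 to 140 (median 92.9), the largest fold of the list (-4.57 ± 0.53, adjusted p = 1.8e-07). Neither gene overlapped between the mutants. The iron transporter *slc11a2* fell by 2.11 with overlapping ranges.

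*tfr1b*, a transferrin receptor through which cells take up iron, is listed under 2 identifiers that went in opposite directions. ENSDARG00000077372 was at 61.6 to 164 in fr105 and 18.5 to 60.0 in IT325, with wild-type at 0 to 4.19. ENSDARG00000012552 was at 0 to 15.6 in fr105 and 26.4 to 73.3 in IT325, with wild-type at 39.0 to 108. Reads may split between near-identical copies, so each value is uncertain. The sum of both was 68.9 to 180 (median 109) in fr105, 44.8 to 128 (median 99.3) in IT325 and 39.0 to 109 (median 88) in wild-type, and these ranges overlapped.

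Of the membrane genes, *add2*, a subunit of adducin, which caps actin in the red cell skeleton, was at 0 to 58.0 (median 7.99) in fr105 and 61.9 to 191 (median 103) in IT325 (-3.12 ± 0.43, adjusted p = 3.6e-06). *dmtn*, which encodes the actin-bundling protein dematin, had 3 transcripts in all fr105 libraries together and 193 in IT325, a ratio of 40.5 with a 95% counting interval of 13.7 to 198. The other members were lower too, among them the tropomodulin *tmod4* (-3.53) and the water channel *aqp1a.1* (-3.21).

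Among the globins, *ba1*, an adult beta globin, was at 110 to 36650 (median 3664) in fr105 and 37730 to 67230 (median 47140) in IT325, while wild-type stood between them at 3599 to 40150 (median 25350). *hbaa2*, an alpha globin, had another pattern, with 70.4 to 3319 (median 392) in fr105, 9538 to 16740 (median 13320) in IT325 and 134 to 2363 (median 234) in wild-type. For each 100 transcripts of *ba1* the libraries held a median of 17.8 *hbaa2* transcripts in fr105, 26.8 in IT325 and 2.0 in wild-type. The ranges of this ratio were 3.82 to 64.3, 19.9 to 36.2 and 0.752 to 6.39, so the mutants overlapped and every IT325 library exceeded every wild-type library. *hbaa1*, the more abundant alpha globin, stood at a median of 85.4, 81.3 and 107 per 100 of *ba1*. Reads matching more than 1 locus had been discarded, which lowers the values of near-identical globins.

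The size of the erythroid difference depended on the set. In P1 alone, where fr105 had erythroid-like cells, the median log2 fold change was -1.08 for the transcription factors, with 0 of 8 called, and -1.31 for the globins, with 1 of 3 called (*hbaa2*). In P2 alone the medians were -3.19 and -7.55, with 6 of 9 and 3 of 3 called. Over all genes, P1 alone gave 113 higher and 95 lower of 3348, and P2 alone 325 and 338 of 3613. Of the membrane genes 1 of 11 was lower and 1 higher in P1, against 14 of 14 lower in P2. *klf1*, *alas2* and *ba1* did not pass in P1 (adjusted p = 0.074, 0.068 and 0.14), whereas *uros* and *add2* did (0.0053 and 0.0075). In sums without the erythroid-like cells *klf1* (-4.25), *alas2* (-3.38), *slc11a2* (-1.46), *hbaa2* (-3.78), *ba1* (-2.47) and *hbaa1* (-2.4) were still lower. There *tal1* did not pass (-1.33, edgeR adjusted p = 0.053), and *gata1a*, *lmo2*, *epor*, *uros*, *add2*, *dmtn*, *tmod4* and *aqp1a.1* were not tested. These sums still held cluster 17, which was left unnamed, carried 7 of 15 erythroid markers and had 16 cells, all from IT325. The source of the remaining transcripts was not tested.

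**Figure D2:**
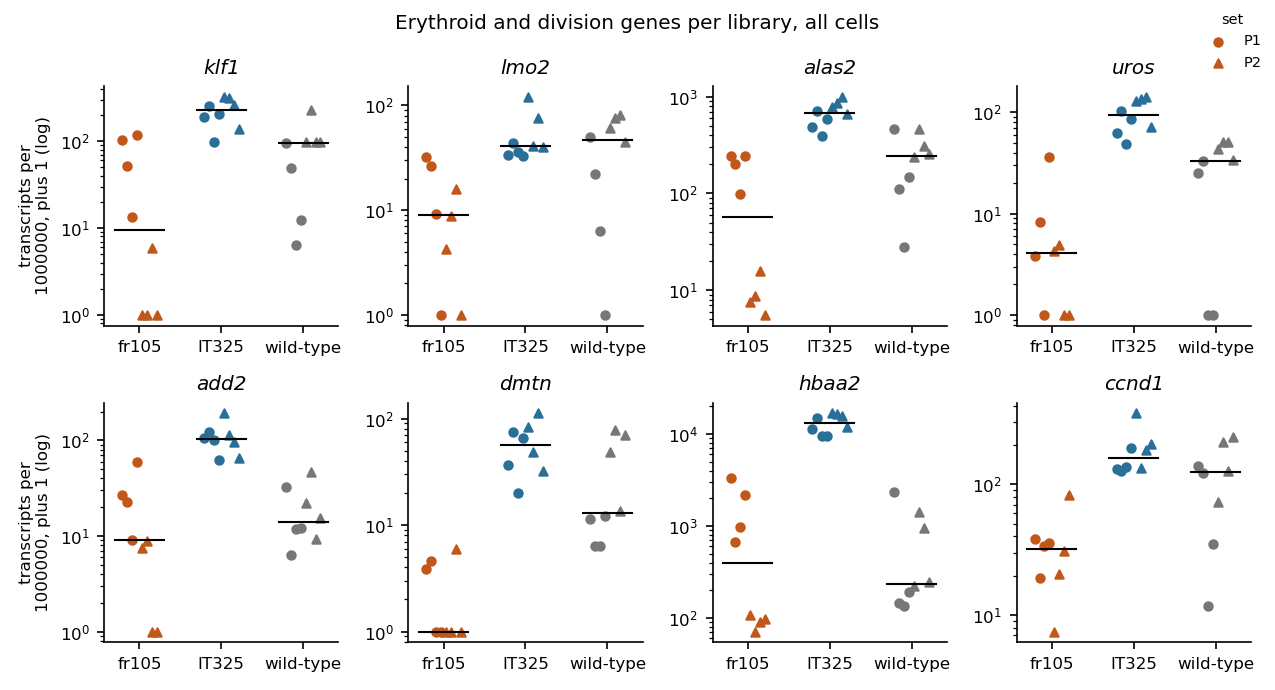
Level per library of 8 erythroid and division genes in sums over all cells (vertical axis, transcripts per 1000000 plus 1, log scale) by genotype, with circles for set P1, triangles for set P2 and a line at the median of 8 libraries. For *hbaa2* the 4 fr105 libraries of P2 lie near the lower end of 70.4 and the IT325 libraries between 9538 and 16740.

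Genes of cell division were lower in fr105 for 20 of 34 tested and higher for 0 (median -0.92). *ccnd1*, the cyclin that starts the move from G1 into S phase, was at 6.49 to 82.0 (median 31.1) in fr105, 126 to 349 (median 159) in IT325 and 10.7 to 228 (median 124) in wild-type (-2.69 ± 0.41, adjusted p = 1.7e-05). *rrm2*, a subunit of the enzyme that makes deoxynucleotides, was at 0 to 58.7 (median 22.0) in fr105 and 64.9 to 250 (median 120) in IT325 (-2.58 ± 0.42, adjusted p = 4.9e-05), and at 0 to 10.7 in wild-type. The mutants did not overlap for either gene. *h2ax*, a histone variant that marks DNA breaks, was lower by -2.0 ± 0.32, and *stmn1a*, which destabilises microtubules, by -1.49 ± 0.33. Without the erythroid-like cells 14 of 30 division genes were still lower, against 305 of 3053 genes in that fit. P1 alone gave 3 of 34, against 95 of 3348.

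Genes of stem and progenitor cells were lower for 4 of 11 tested and higher for 1. *mycb*, a Myc transcription factor, stood at 3.24 to 13.7 (median 5.32) in fr105 and 3.60 to 127 (median 67.7) in IT325 (-3.39 ± 0.65, adjusted p = 0.00033), with overlap. Of the 14 genes tested among the Ikaros family and its partners, *ikzf1* included, 3 were lower and 0 higher (median -0.20). The lower ones were 21.4% of those tested, against 13.4% over all genes, and *ikzf1* itself was 1 of them. *SMARCE1*, a subunit of the BAF chromatin complex, was lower by -0.80 ± 0.22 with overlapping ranges and did not pass in P1 alone (adjusted p = 0.32).

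Genes of protein synthesis moved less but in large number. Of 83 ribosomal protein genes 41 were lower in fr105 and 0 higher (median -0.36), and of 46 translation factors 20 were lower and 1 higher (median -0.47). *rplp1*, an acidic stalk protein of the ribosome, was at 1866 to 2383 (median 1982) in fr105, 2393 to 4155 (median 3195) in IT325 and 2622 to 4255 (median 3593) in wild-type (-0.76 ± 0.13, adjusted p = 9.7e-05). *eif5a2*, which helps the ribosome through difficult peptide bonds, was lower by -1.27 ± 0.21. *eef1db*, a subunit of the exchange factor of elongation, was the exception, at 302 to 488 in fr105 and 160 to 238 in IT325 (0.68 ± 0.16, adjusted p = 0.0021).

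The ribosomal count moved with the cells and the scaling that entered it. It was 14 of 83 without the erythroid-like cells, 15 without normalization factors, 0 in P1 alone and 37 in P2 alone, with none higher in any of these 4 fits. Over all genes these fits gave 305 of 3053, 281 of 3296, 95 of 3348 and 338 of 3613 lower, in that order. Translation factors gave 13 of 45 lower without the erythroid-like cells. Splicing factors were lower for 13 of 56 (median -0.34), and for 5 without normalization factors. *syncrip*, an RNA-binding protein of this list, was lower by -0.86 ± 0.14. Of 25 proteasome genes 4 were lower, close to the share over all genes.

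Chaperones were lower for 9 of 40 and higher for 3. *hspa8*, the constitutive Hsc70 chaperone, was at 1274 to 1509 in fr105 and 1535 to 2223 in IT325, with a small step and no overlap (-0.58 ± 0.10, adjusted p = 1.0e-04). *zgc:92744*, whose human orthologue SERP1 belongs to the endoplasmic reticulum stress response, went the other way, at 93.8 to 232 against 34.8 to 67.7 (1.11 ± 0.21, adjusted p = 0.00028). The nuclear genes of the respiratory chain gave 1 higher and 3 lower of 71. The 13 genes of the mitochondrial genome gave 0 in either direction by edgeR, and 3 were lower once kidney tubule-like cells and the cluster led by mitochondrial genes were left out, or 4 higher without normalization factors.

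Genes of neutrophils were higher in fr105, where neutrophil-like cells were more frequent. Of 16 granule genes 8 were higher, against 15.3% of all genes, and 2 lower, and of 15 myeloid regulators and receptors 6 were higher and 0 lower (both medians 0.44). *lect2l*, a chemotactic protein of neutrophils, was at 6438 to 12170 (median 8756) in fr105, 1315 to 2612 (median 2213) in IT325 and 3184 to 8395 (median 5282) in wild-type (1.95 ± 0.19, adjusted p = 7.0e-09). *npsn*, the secreted protease nephrosin, was at 6156 to 13430 (median 9539) in fr105 and 1509 to 4958 (median 3314) in IT325 (1.42 ± 0.21, adjusted p = 1.2e-05). Both mutants lay above the wild-type range of 382 to 1339 for *npsn*, whereas for *lect2l* the IT325 libraries lay below all those of wild-type.

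The metalloproteases *mmp13a* and *mmp9*, which cut extracellular matrix, were the 2 granule genes that were lower. *mmp13a* was at 117 to 628 (median 476) in fr105, 790 to 1801 (median 1455) in IT325 and 650 to 1477 (median 823) in wild-type (-2.01 ± 0.27, adjusted p = 2.4e-06). *mmp9* was at 27.3 to 209 in fr105 and 209 to 728 in IT325, ranges that touched, and at 0 to 103 in wild-type. The difference was -2.01 ± 0.41 (adjusted p = 0.0006).

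Among the regulators, *spi1b*, a PU.1 factor of myeloid cells, was at 546 to 958 (median 682) in fr105 and 237 to 497 (median 421) in IT325 (0.70 ± 0.15, adjusted p = 0.00079). *cxcr4b*, a chemokine receptor that holds cells in the marrow of mammals, was at 966 to 1518 in fr105, 448 to 815 in IT325 and 1219 to 2430 in wild-type (0.80 ± 0.14, adjusted p = 0.00015). For both the mutants did not overlap, and *cebpa*, a granulocyte factor, was higher by 0.81 ± 0.19 with overlap. Of the 46 genes of actin and motility 19 were higher and 0 lower (median 0.33). *VASP*, which lengthens actin filaments, was at 173 to 371 against 56.9 to 127 (1.12 ± 0.19, adjusted p = 7.1e-05). Without the erythroid-like cells 6 actin genes were higher and 1 lower, in a fit where 383 of 3053 genes were higher and 305 lower.

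Of 23 genes of the NADPH oxidase and redox balance 6 were higher and 7 lower. The higher ones included subunits of the oxidase with which neutrophils make superoxide. *ncf1* was at 250 to 405 (median 301) in fr105, 56.9 to 133 (median 112) in IT325 and 195 to 349 (median 269) in wild-type (1.43 ± 0.16, adjusted p = 6.0e-08), *cyba* was higher by 1.03 ± 0.14, and the GTPase *rac2* by 0.85 ± 0.15, each with no overlap between the mutants. Enzymes that remove peroxides went both ways, with *gpx1a* (-0.85 ± 0.18), *prdx2* (-1.33 ± 0.33) and *prdx3* (-1.66 ± 0.34) lower and *prdx1* higher (1.40 ± 0.31), all with overlapping ranges.

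The thioredoxins, small proteins that reduce disulfides, moved in opposite directions. *zgc:56493*, which the RefSeq table names txna, was at 532 to 871 (median 684) in fr105, 140 to 276 (median 202) in IT325 and 327 to 516 (median 386) in wild-type (1.56 ± 0.14, adjusted p = 1.5e-09). *txnb* was at 16.3 to 78.2 (median 30.8) in fr105, 77.5 to 197 (median 129) in IT325 and 3.62 to 24.3 (median 12.5) in wild-type (-1.87 ± 0.25, adjusted p = 2.8e-06). The first separated the mutants in all 16 libraries, while the second overlapped at the edge of the ranges.

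Within neutrophil-like cells alone, 446 of 1673 genes (26.7%) differed, 221 higher (13.2%) and 225 lower (13.4%) in fr105. For 42 genes (2.51%) every fr105 library lay above every IT325 library and for 51 (3.05%) below, and the median log2 fold change was -0.06. Libraries held 14 to 26 such cells in fr105 and 13 to 20 in IT325. Different clusters held them. Of 172 fr105 cells 83 were in cluster 0, 66 in cluster 1 and 21 in cluster 15, while of 130 IT325 cells 64 were in cluster 2, 49 in cluster 6 and 15 in cluster 1. Cluster 6 carried 12 of 14 neutrophil markers and 7 of 18 macrophage markers. With cells named without clusters, 431 of 2381 genes differed, 251 higher and 180 lower. That class was wider, with 84.3% of an fr105 library against 56.8% by clusters, and 55.0% against 36.5% in IT325. Values given below without clusters are from this wider set of cells.

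Granule genes no longer leaned to fr105 in these sums, with 4 of 16 higher and 4 lower (median -0.15). *lect2l* stayed higher, at 11280 to 19060 (median 13710) in fr105 against 3314 to 6215 (median 5406) in IT325, with wild-type at 8164 to 16200 (1.34 ± 0.14, adjusted p = 8.8e-10). *npsn* was higher by 0.91 ± 0.15 with overlapping ranges. The matrix proteases kept their direction with no overlap. *mmp13a* was at 293 to 903 (median 699) in fr105, 1465 to 5298 (median 3687) in IT325 and 1394 to 3240 (median 1834) in wild-type (-2.65 ± 0.23, adjusted p = 1.1e-11), and *mmp9* was lower by -2.49 ± 0.39. All 4 of these genes are also markers that named the neutrophil-like class, with or without clusters. *mpx*, myeloperoxidase and also such a marker, was at 2895 to 4229 in fr105, 4184 to 8013 in IT325 and 1904 to 2774 in wild-type. *lect2l* is a leading gene of cluster 0 (83 fr105 and 2 IT325 cells), and *npsn* and *mpx* are leading genes of cluster 2 (1 and 64). Their levels thus helped to choose the cells in which they were compared.

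Macrophage genes were lower for 6 of 9 tested and higher for 1 (median -1.83). *grna.1*, of the granulin family of secreted growth factors, was at 5.88 to 185 (median 70.7) in fr105, 2302 to 11300 (median 4706) in IT325 and 0 to 418 (median 86.8) in wild-type (-6.16 ± 0.42, adjusted p = 1.8e-14). Every IT325 library lay above every wild-type and fr105 library. The size of this difference depended on which cells were summed. It was -2.71 (edgeR adjusted p = 0.0061) in the wider set of cells named without clusters. In sums over all cells it was -2.40 (edgeR adjusted p = 0.016), where P2 alone did not pass (-1.15, adjusted p = 0.37) and fr105 reached 1695. *grna*, a relative, was at 0 to 76.9 against 92.5 to 183 (-2.69 ± 0.37, adjusted p = 4.3e-07) and differed by -1.70 without clusters, and the galectin *lgals9l1* was lower by -2.83 ± 0.40. Without clusters, 4 of 10 macrophage genes were lower and 1 higher (median -0.51). *grna.1*, *lgals9l1*, *mmp9* and *f5* are among the leading genes of cluster 6, so their levels also helped to define it. The macrophage marker list summed to 334 to 954 in fr105 and 321 to 2120 in IT325, with 2 of its 3 tested markers lower. Macrophage-like cells themselves numbered 21 in fr105 and 4 in IT325. The part of either in these differences was not tested.

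Redox genes split again, with 4 of 16 higher and 5 lower. *ncf1* was higher by 0.90 ± 0.19 and *zgc:56493* by 1.76 ± 0.14, the latter at 594 to 1192 (median 795) in fr105 and at most 272 (median 219) in IT325. *txnb* was at 16.1 to 147 (median 37.6) against 160 to 311 (median 235) and *prdx6*, a peroxidase of phospholipids, at 31.4 to 100 (median 82.4) against 126 to 287 (median 218). Both were lower in fr105 with no overlap (-2.42 ± 0.28 and -1.66 ± 0.25), and *prdx6* by -1.0 when cells were named without clusters. *prdx1* went the other way, at 109 to 382 against 28.3 to 151 (1.27 ± 0.32, adjusted p = 0.0027). *f5*, coagulation factor V, which the lists hold among thrombocyte genes, was at 17.7 to 105 against 132 to 425 (-2.58 ± 0.29, adjusted p = 8.1e-09).

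**Figure D3:**
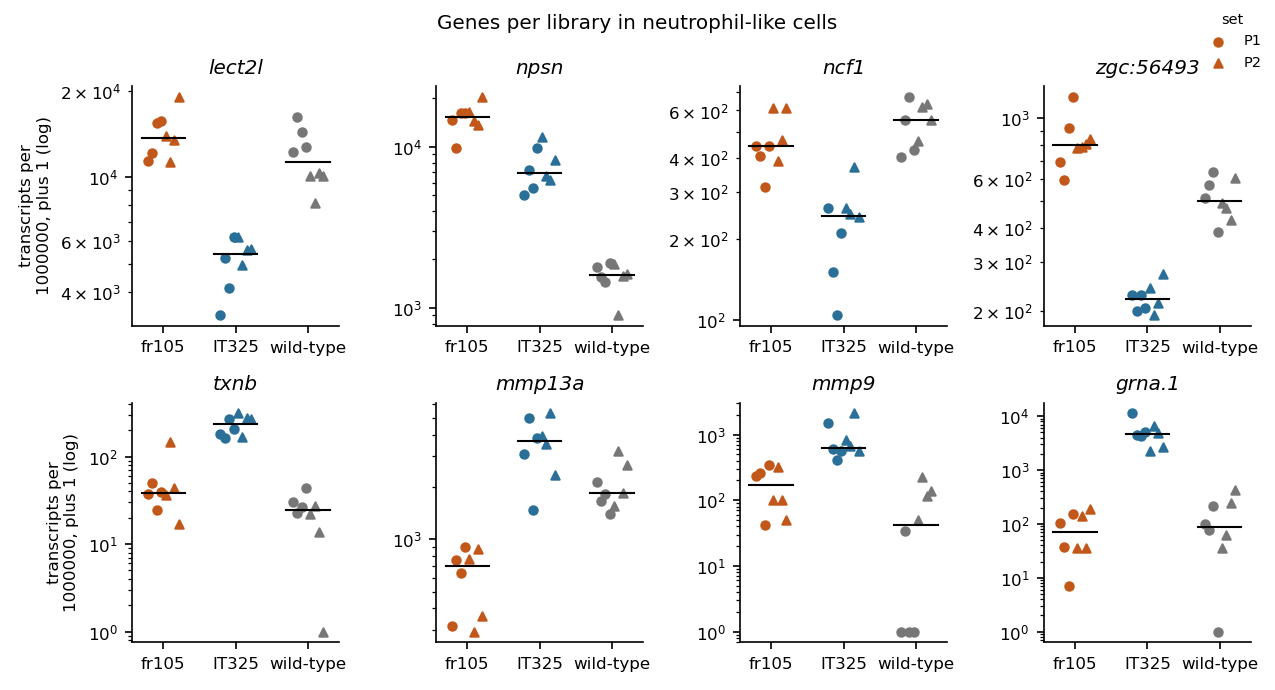
Level per library of 8 genes in sums over neutrophil-like cells (vertical axis, transcripts per 1000000 plus 1, log scale) by genotype, with circles for set P1, triangles for set P2 and a line at the median of 8 libraries. *grna.1* stands at 2302 to 11300 in IT325, above all libraries of fr105 (5.88 to 185) and wild-type (0 to 418), whereas *lect2l* is lower in IT325 (3314 to 6215) than in the other genotypes.

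Globin transcripts differed in neutrophil-like cells too. *hbaa2* was at 29.3 to 431 (median 152) in fr105, 1465 to 3951 (median 2361) in IT325 and 64.3 to 515 (median 131) in wild-type (-3.96 ± 0.34, adjusted p = 5.4e-12). The erythroid marker list summed to 381 to 4180 in fr105 and 7015 to 14660 in IT325, with 6 of 6 tested markers lower in fr105, and the IT325 libraries held the larger share of erythroid-like cells. The part of free RNA from red cells in these values was not tested.

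Some functions that were numerous in all cells were closer to the background here. Ribosomal proteins were lower for 8 of 81 and higher for 0, and when cells were named without clusters 0 were lower and 2 higher. Actin genes gave 4 higher and 5 lower of 42, myeloid regulators 1 and 1 of 12, and cell division 0 higher and 1 lower of 8. Chaperones were not, with 8 of 26 lower and 2 higher, and *hspa8* was among the lower (-0.73 ± 0.11). The lean of lysosomal enzymes and glycolysis changed. Lysosomal enzymes gave 1 lower and 3 higher of 20 in all cells. Here they gave 5 lower and 2 higher of 14, or 2 and 2 of 15 without clusters. Glycolysis gave 0 lower and 5 higher of 23 in all cells. Here it gave 5 lower and 1 higher of 20, or 2 and 2 of 21 without clusters. Genes of the mitochondrial genome were lower for 4 of 11 and higher for 0 (median -0.19), against 13.4% lower over all genes. Of 504 genes higher in all cells, 401 were tested in neutrophil-like cells and 210 were higher there. Of 443 lower genes, 219 were tested and 115 were lower. None was called in the opposite direction. The calls in both sums were 52.4% of the first list among those tested and 95% of the higher genes in neutrophil-like cells, and for lower genes 52.5% and 51.3%. Both sums share cells, so the second is no independent test of the first.

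**Figure D4:**
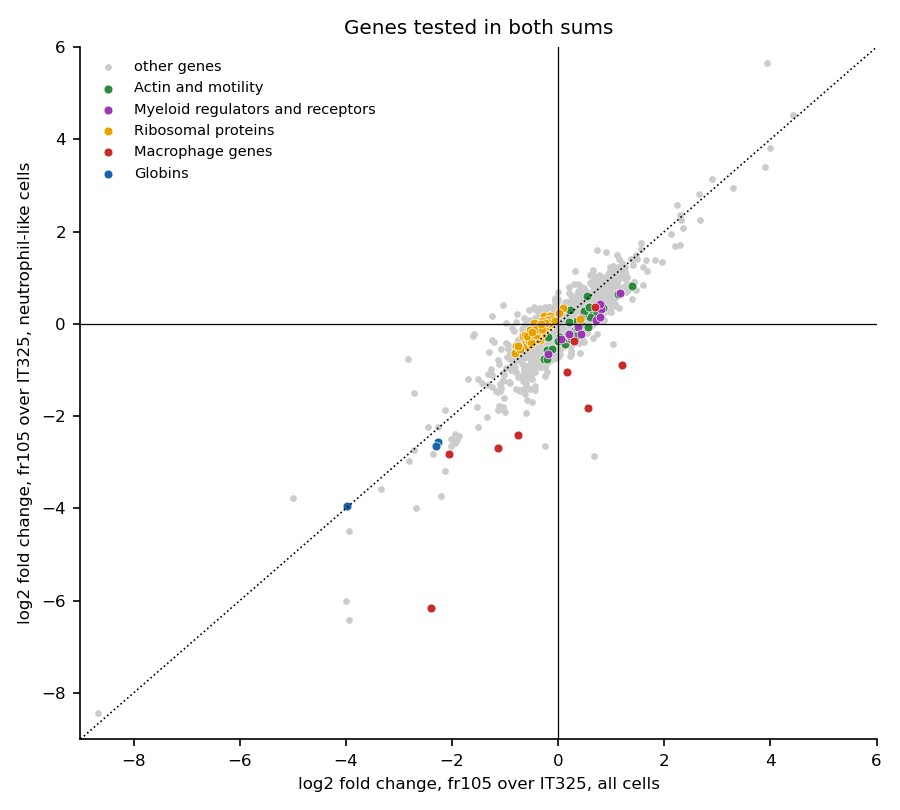
Log2 fold change of fr105 over IT325 for the 1672 genes tested in both sums, in all cells (horizontal axis) and in neutrophil-like cells (vertical axis), with globins, ribosomal proteins, actin and motility genes, myeloid regulators and macrophage genes coloured. Of the genes called in both, 210 are higher and 115 lower, and none lies in opposite quadrants.

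Lymphocyte genes were few. Of 22, 24 and 22 genes listed for B cells, T cells and innate lymphocytes, 8, 3 and 3 passed the filter, and 4, 1 and 0 were called. *cd79b*, a signalling chain of the B cell receptor, was at 219 to 376 in fr105, 88.6 to 200 in IT325 and 156 to 323 in wild-type (0.77 ± 0.16, adjusted p = 0.00078), and it was higher in neutrophil-like sums as well (0.70 ± 0.19). *itk*, a kinase of T cell receptor signalling, was at 44.5 to 139 in fr105, 8.37 to 30.8 in IT325 and 0 to 36 in wild-type (1.53 ± 0.37, adjusted p = 0.0028). In neutrophil-like sums *itk* did not pass the filter, and it stood at 63.4 to 231 in fr105, 8.70 to 56.5 in IT325 and 0 to 42.0 in wild-type. Cells named B cell-like or T cell-like were rare or absent in the mutants. B cell-like cells numbered 2 in each mutant and 35 in wild-type. T cell-like cells numbered 0 of 304 in fr105 and 0 of 359 in IT325, against 23 in wild-type. If cells are treated as independent, these counts of 0 allow shares of up to 0.987% and 0.836%. Those limits leave out the spread between libraries. Further cells with lymphocyte markers stood in clusters that were left unnamed. Cluster 16 was led among others by *il2rb*, the beta chain of the interleukin-2 receptor, *nkl.2*, an NK-lysin, and *prf1.2*, a perforin. It carried 6 of 13 innate lymphocyte markers and 5 of 13 T cell markers. That was just short of the 50% that a name required, and also short of the 1.5-fold lead required over the runner-up list. Cluster 16 held 1 fr105, 18 IT325 and 2 wild-type cells. Cluster 8, with 5 of 13 T cell markers and 5 macrophage markers, held 11, 28 and 6. These counts were not tested.

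Other lists differed in single members, and their counts lay close to the shares over all genes (15.3% higher and 13.4% lower). The shares higher were 16.7% for immediate early genes, 21.7% for glycolysis and 20.0% for kidney tubule genes. Immediate early genes, induced within minutes of stimulation and during cell handling, were higher for 4 of 24 and lower for 2. *mcl1b*, a survival factor of the Bcl-2 family, was at 185 to 435 in fr105, 82.8 to 166 in IT325 and 231 to 495 in wild-type (1.08 ± 0.18, adjusted p = 6.7e-05). Glycolysis was higher for 5 of 23, among them lactate dehydrogenase *ldha* (0.56 ± 0.13). Kidney tubule genes were higher for 2 of 10, the sodium pump subunit *atp1a1a.4* (1.40 ± 0.23) and the cadherin *CDH17* (1.75 ± 0.53), and the lists' tubule-like cells numbered 43 in fr105, 30 in IT325 and 2 in wild-type. The call on *CDH17* was lost without fr105 replicate 1.

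Outside the lists, the 10 genes with the largest higher level in fr105 and no overlap did not pass the test between fr105 and wild-type in sums over all cells. *cited4a*, a coactivator of the CITED family, was at 422 to 889 (median 590) in fr105, 91.7 to 142 (median 97.9) in IT325 and 348 to 700 (median 529) in wild-type (2.31 ± 0.16, adjusted p = 8.1e-12). *fkbp5*, a co-chaperone of the glucocorticoid receptor and one of its targets in mammals, was at 128 to 259 (median 178), 15.4 to 58.0 (median 31.8) and 78.8 to 228 (median 186) in the same order (2.35 ± 0.24, adjusted p = 1.1e-08). For these 10 genes the adjusted p of fr105 against wild-type lay between 0.27 and 0.92, and every IT325 library lay below every library of the other genotypes. The others carry clone names, such as *BX321875.3* (4.0 ± 0.27), *CR388047.3* (3.3 ± 0.24) and *si:dkeyp-1h4.9* (2.65 ± 0.20).

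Of the 10 lower genes, *zgc:92880*, whose human orthologue is the globin HBE1, was at 36.4 to 2815 (median 524) in fr105, 9653 to 17460 (median 13260) in IT325 and 118 to 2999 (median 563) in wild-type. The globin list does not hold this gene, so the globin counts above leave it out. *CYTH2*, an exchange factor for ARF GTPases, was at 0 to 18.2 in fr105, 36.7 to 195 in IT325 and 0 to 24 in wild-type (-3.33 ± 0.42, adjusted p = 8.2e-07). *nmt1b*, a transferase that attaches myristate to proteins, was at 0 to 29.0 against 34.8 to 155 (-3.44 ± 0.63), with wild-type at 0 to 103, and it did not pass in P1 alone (adjusted p = 0.14). *CYTH2*, *jac7* and *lad1* are among the leading genes of cluster 17, which was left unnamed and whose 16 cells all came from IT325. In neutrophil-like cells the *CYTH2* ranges overlapped, at 0 to 31.4 in fr105 and 13 to 48.0 in IT325. For *zgc:92880* and *CYTH2* the fr105 and wild-type ranges overlapped over most of their length.

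In neutrophil-like cells *wbp2nl* was at 253 to 481 in IT325 and had no transcript in fr105, which makes it at least 121-fold higher in IT325 against a floor of 3 transcripts over the group. *si:dkey-88j15.4* was at 95.7 to 216 in IT325 with no transcript in fr105 or wild-type, at least 55.8-fold higher than in fr105. It is a leading gene of cluster 2 (1 fr105 and 64 IT325 cells), so its level helped to choose the cells compared. With cells named without clusters it was not tested. Both genes passed the filter on low counts through IT325, where they were high. *CR936442.1* had 2 transcripts in fr105 and 247 in IT325, a ratio of 120 with a 95% counting interval of 33.0 to 999. Its fitted difference of -6.41 was -4.29 when cells were named without clusters and -3.95 in sums over all cells, where fr105 reached 27.3. *si:dkey-238c7.13* separated all 3 genotypes by median, at 282 to 1192 (median 535) in fr105, 0 to 32.9 (median 5.93) in IT325 and 19.6 to 178 (median 61.7) in wild-type (5.66 ± 0.42, adjusted p = 1.2e-13). Its difference was smaller, at 3.94, both without clusters and in sums over all cells, where fr105 and wild-type overlapped, and 4.24 with cells thinned to 1500 transcripts.

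**Figure D5:**
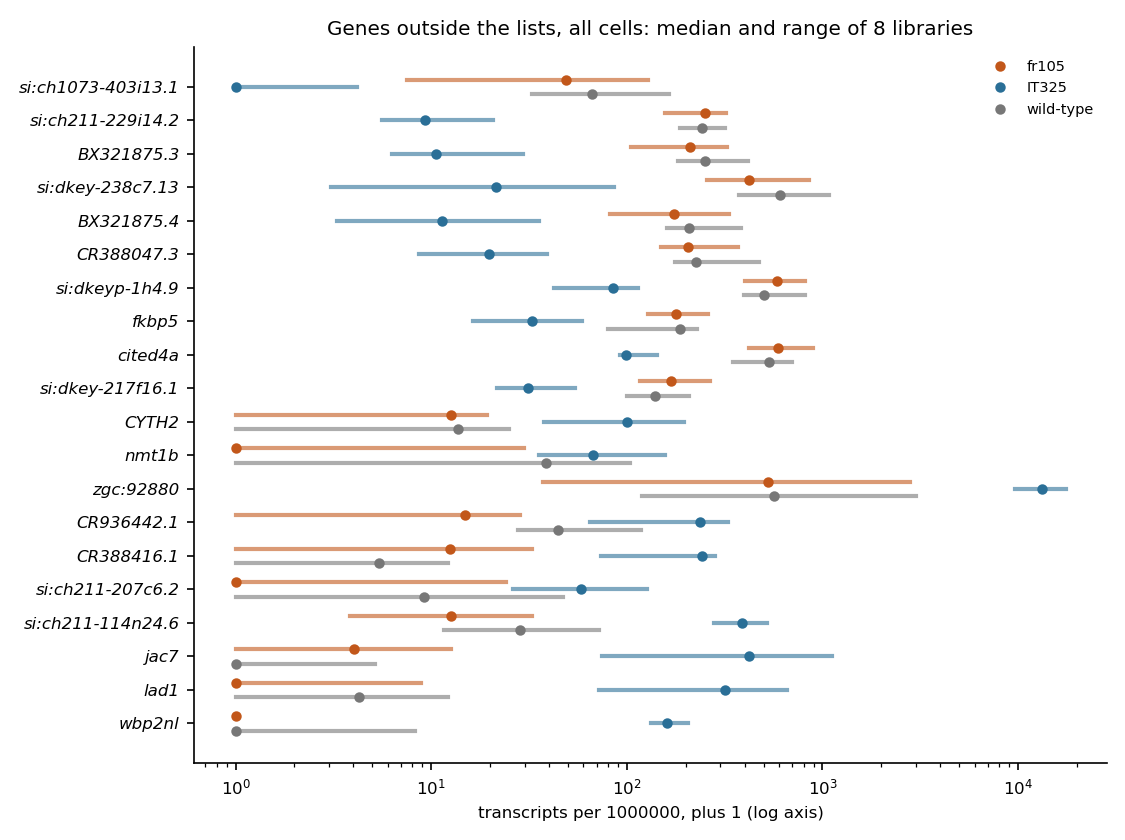
Level per library of the genes outside the lists with the largest difference and no overlap between the mutants, in sums over all cells (horizontal axis, transcripts per 1000000 plus 1, log scale), for fr105, IT325 and wild-type libraries. For the higher genes, such as *cited4a* with 422 to 889 in fr105 and 348 to 700 in wild-type, IT325 stands alone at 91.7 to 142.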

How the data were processed

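The authors aligned reads to gene models of an Ensembl release named in the study's methods, with 3′ extensions, discarded reads with more than 1 locus, counted UMIs of 6 bases per barcode and gene and corrected them for UMIs drawn repeatedly, so the deposited values are expected counts (estimated transcript counts), not normalized. The submitters' processing notes name bcl2fastq 2.17.1.14 and BWA 0.6.2-r126. A genome build for these files is not given in the sources used here. Each file lists 192 barcodes, of which the fuller 96 were used and the others, with 0.709 to 7.09% of transcripts, give a background. Plates reuse the same barcodes by design. Every pair of libraries of a mutant differed by more than sampling noise (56 pairs, lowest chi-square per degree of freedom 2.52). No doublet caller was run, because wells had been filled with 1 sorted cell each.

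Cells were summed per library, and the sums were rounded to whole numbers. edgeR 4.0.16 in R 4.3.3 was fitted to all 24 libraries (TMM, filterByExpr, quasi-likelihood test), with Benjamini-Hochberg adjustment over all genes tested. Classes came from clusters (Python 3.11.15, scikit-learn 1.9.0, leidenalg 0.10.2: 2000 variable genes, 30 components, 15 neighbours, resolution 1, 18 clusters). Clusters were named "-like" from marker lists. A name needed 3 markers, 50% of its list and a 1.5-fold lead in markers over the runner-up list. In simulated data of 3190 genes, 95 were changed 2-fold and 98 were changed 4-fold in fr105. The fit found 69.5% of the 2-fold and 100% of the 4-fold changes, and 5.20% of its calls were false. The simulation held far fewer changed genes than were called in the data, and no difference in cell types or sets. Its false share therefore does not carry over to the calls reported here. The intervals and floors cover counting error only. Alternatives used DESeq2 1.42.0, RLE or no factors, other filters, each set, cells named without clusters, thinning of cells to 1500 transcripts, UMI counts and each library left out.

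The lists, members and rules were chosen with earlier results of these data known. Named are *ikzf1*, up to 5 called members of each list and direction by adjusted p, members of lists with at most 6 tested, and, outside the lists, the 10 (in neutrophil-like cells 5) genes in each direction with the largest fold, no overlap and at least 100 transcripts.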

Additional observations from a re-analysis of the deposited data

Results flagged for a closer look

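In a group of 8 libraries, a library was singled out where the gap between it and its nearest neighbour as a share of the whole range exceeded the 95% critical value of Dixon's test. This happened in 39 of 343 groups of values of the genes named. Chance alone gives about 1 in 20 for independent values with a normal distribution. Levels from few transcripts do not have that distribution, so the number of flags cannot be set against that rate. Values are transcripts per 1000000, and no explanation was tested.

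In sums over all cells, fr105 replicate 1 stood apart at 68.2 for *gata1a* and 34.1 for *tmod4*. fr105 replicate 2 stood apart at 97.8 for *tal1* and 116 for *SMARCE1*. fr105 replicate 3 stood apart at 889 for *cited4a*. fr105 replicate 4 stood apart at 34.8 for *uros*, 58 for *add2*, 232 for *zgc:92744*, 139 for *itk* and 23.2 for *si:ch211-207c6.2*. fr105 replicate 8 stood apart at 82 for *ccnd1*.

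In sums over all cells, IT325 replicate 1 stood apart at 191 for *add2* and 349 for *ccnd1*. IT325 replicate 10 stood apart at 5610 for *grna.1* and 1120 for *jac7*. IT325 replicate 12 stood apart at 34.8 for *BX321875.4*. IT325 replicate 9 stood apart at 250 for *rrm2*.

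In sums over all cells, wild-type replicate 3 stood apart at 365 for *cyba*. Wild-type replicate 4 stood apart at 236 for *cox6a2*, 416 for *BX321875.3* and 473 for *CR388047.3*. Wild-type replicate 6 stood apart at 227 for *klf1*, 1480 for *mmp13a*, 103 for *mmp9* and 88.5 for *lgals9l1*. Wild-type replicate 7 stood apart at 4.19 for *jac7* and 4.19 for *tfr1b* (ENSDARG00000077372).

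In sums over neutrophil-like cells, fr105 replicate 4 stood apart at 76.9 for *grna*. fr105 replicate 6 stood apart at 147 for *txnb*. fr105 replicate 8 stood apart at 105 for *f5*.

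In sums over neutrophil-like cells, IT325 replicate 11 stood apart at 414 for *CR936442.1* and 443 for *CR388416.1*. IT325 replicate 12 stood apart at 58.3 for *BX321875.3*, 71.3 for *BX321875.4* and 77.8 for *CR388047.3*.

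In sums over neutrophil-like cells, wild-type replicate 1 stood apart at 9.8 for *wbp2nl*. Wild-type replicate 4 stood apart at 493 for *CR388047.3*. Wild-type replicate 6 stood apart at 903 for *npsn* (low) and 182 for *lgals9l1*.

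Some of these values rested on few cells. The wild-type values singled out for *jac7*, *tfr1b* and *wbp2nl* each came from 1 cell, with 0 in the other libraries of the genotype. The *jac7* level of IT325 replicate 10 came from 14 cells, 1 of which held 55.4% of it, and the *uros* level of fr105 replicate 4, the library with the fewest cells (23), came from 2 cells. Leaving out either library ended none of these calls.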

How the results depend on the processing

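The count of genes that differ in all cells (947) was 1580 with no filter on low counts, 208 in P1 alone, 274 with cells thinned to 1500 transcripts and 840 to 1017 when 1 library was left out. In neutrophil-like cells (446) it was 154 in P1, 285 in P2, 70 after thinning and 384 to 473 without 1 library. P1 and P2 hold 4 libraries a genotype, and thinning leaves 826 and 398 genes to test. The difference in erythroid-like shares was -14.9 to -13.3 percentage points and that in neutrophil-like shares 19.2 to 21.9 without 1 library. With cells named without clusters they were -36.4 and 29.3, and both kept their side of the threshold in every alternative run. Of the 82 results in all cells and 31 in neutrophil-like cells for named genes, 0 changed direction under any alternative. P1 alone ended 28 calls and P2 alone 8. Without normalization factors the split in neutrophil-like cells was 290 higher against 173 lower.

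The labels of fr105 and IT325 share the numbers 1 to 4. By their titles these libraries belong to set P1 in fr105 and to set P2 in IT325. In fits to them set and genotype therefore cannot be told apart. Same-numbered libraries correlated at -0.02 to 0.09 in all cells and -0.15 to 0.20 in neutrophil-like cells, so they share only a number. With these numbers as a replicate block the counts were 215 and 132, and in the same libraries without the block, an alternative chosen after seeing the data, 285 and 155. Depth limits genes of few transcripts: the least deep library had 103585.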
